A study of Mus musculus with 2 samples.

Results

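The 9 genes examined here control the decay of cytokine mRNAs and were chosen by symbol: Zfp36, Zfp36l1, Zfp36l2, Zc3h12a, Zc3h12c, Rc3h1, Rc3h2, Elavl1 and Khsrp. They are 9 of 55536 annotated genes. RNA came from the nucleoplasmic fraction of primary bone marrow-derived macrophages of C57BL/6J mice, given 100 ng/ml Lipid A, the lipid anchor of lipopolysaccharide and a TLR4 ligand, for 30 min. Other labels call the same fraction nuclear. The 2 libraries, replicates 1 and 2, form 1 group, made by total RNA sequencing after depletion of ribosomal RNA from 1 µg of RNA for replicate 1 and 500 ng for replicate 2. Their biosamples differ while the donor entry is shared, no age or sex was recorded, and the labels say only that the replicates are biological, so the spread between them may be technical. An unstimulated sample was not analysed here, so the values are levels after Lipid A and no gene can be called induced.

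Many cytokine mRNAs carry AU-rich elements in the 3′ UTR, and their short life depends on proteins that read these elements. Tristetraprolin, the product of Zfp36, and its paralogs bind UAUUUAU with a pair of zinc fingers and bring in the CCR4-NOT deadenylase; the p38 and MK2 kinases phosphorylate tristetraprolin and restrain it. Regnases cut stem-loops in such mRNAs, roquins bind stem-loops and recruit deadenylases, and HuR and KSRP bind AU-rich elements to opposite effect, HuR stabilising and KSRP destabilising the mRNA. The mRNAs are degraded largely in the cytoplasm, whereas the RNA measured here is nuclear and in part unprocessed.

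Expected counts, the reads that the authors' quantification assigned to genes and that need not be whole, summed to 16037242 in replicate 1 and 14906686 in replicate 2. TPM, a unit that shares a fixed total among all transcripts, corrects these counts for length and allows levels of different genes to be set side by side. Nuclear protein-coding genes held 27.6% of all TPM in replicate 1 and 20.2% in replicate 2. All 8 macrophage markers were detected, with means between 24.8 and 1880 TPM. Of 16 markers of other cell types, 1 was detected, S100a9 at 1.17 TPM; summed over the list they held 2.61 TPM in replicate 1 and 4.29 TPM in replicate 2, and Cd3e, Ly6g, Epcam and Hbb-bs were at 0 reads in both.

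All 9 decay regulators were detected, meaning 1 TPM or more in each library, as were 42.4% of 22028 protein-coding genes and 20.7% of all annotated genes. Their median was 22.9 TPM in replicate 1 and 18.4 TPM in replicate 2, beside 9.49 and 7.48 TPM over detected protein-coding genes. Zfp36 stood far above the rest at 466 ± 62.5 TPM (SD, n = 2), which placed it 57th of the protein-coding genes. It made up 64.5% of the summed TPM of the 9 genes in replicate 1 and 71.4% in replicate 2. Zfp36l1 followed at 72.1 ± 18.4 TPM, then Zc3h12a, Zc3h12c, Rc3h2, Zfp36l2, Rc3h1, Khsrp and Elavl1, the lowest at 10.8 ± 2.14 TPM. The ranges of the 2 libraries overlapped between Zc3h12a and Zc3h12c, between Zc3h12c and Rc3h2, and between Rc3h1 and Khsrp. By range these neighbours did not differ beyond their spread. Within each library Rc3h1 stood above Khsrp and Zc3h12a above Zc3h12c, the latter by only 1.02 times in replicate 1. Zc3h12c and Rc3h2 changed places between the libraries. The wide range of Zc3h12c, from 10.5 to 43.8 TPM, also overlapped those of Zfp36l2, Rc3h1, Khsrp and Elavl1.

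**Figure D1:**
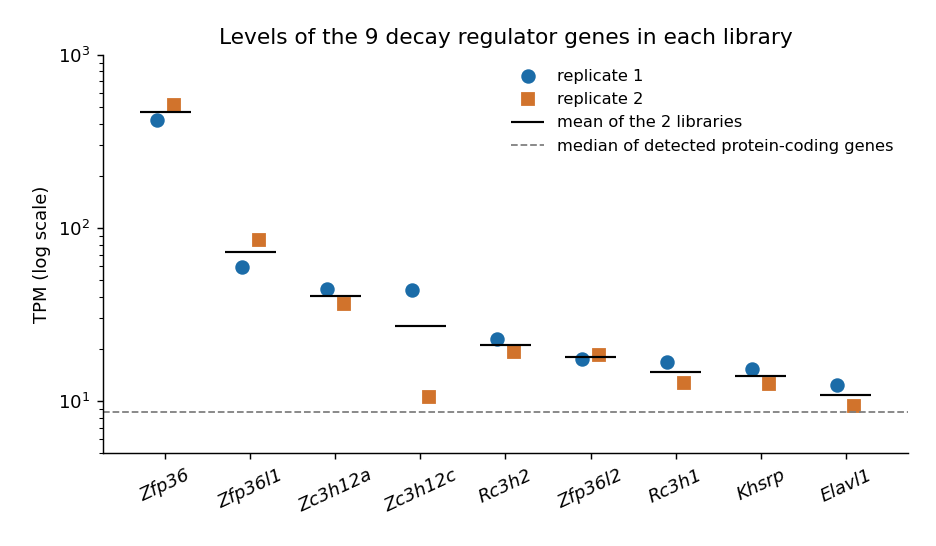
TPM of each decay regulator gene on a log axis, in replicate 1 (circles) and replicate 2 (squares), with the mean as a bar; the dashed line is the median of detected protein-coding genes, 8.61 TPM. Zfp36 lies above all others in both libraries, and Zc3h12c shows the widest gap between libraries on this scale, with 43.8 TPM in replicate 1 and 10.5 TPM in replicate 2.

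Zfp36 (ENSMUSG00000044786.6, chr7:28376784-28380253, minus strand, mm10) had 422 TPM in replicate 1 and 510 TPM in replicate 2, from 16571 and 24887 reads. The exact 95% Poisson interval of the count ran from 16320 to 16825 in replicate 1 and from 24579 to 25198 in replicate 2. Its level exceeded that of Zfp36l1 by 7.14 times in replicate 1 and 6.00 times in replicate 2, and that of Zfp36l2 by 24.1 and 27.8 times. Zfp36 thus held 84.6% and 83.1% of the TPM of the 3 paralogs. In the order of mean TPM the next protein-coding gene above it was Kctd12 and the next below was Vmp1.

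Most Zfp36 RNA was assigned to a transcript that retains the gene's single intron. The annotation has a pair of Zfp36 transcripts, both of class protein coding. The spliced transcript (ENSMUST00000051241.6) joins 2 exons across an intron of 680 bases (chr7:28378494-28379173), and the unspliced one (ENSMUST00000209061.1) is 1 unbroken exon (chr7:28376791-28379255) that holds the whole intron, with its annotated coding part starting downstream of it. The unspliced transcript took 81.9% of the gene's TPM in replicate 1 and 76.0% in replicate 2, and 79.8% and 73.4% of its reads. In the second transcript tables, which the deposited text files list as derived from read files where the first ones derive from an alignment, its shares of TPM were 76.0% and 74.2%. The class retained intron, which no Zfp36 transcript bears, would have given a share of 0.

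The boundaries are shown because they are what tells unspliced from spliced Zfp36 RNA. All 3 are on the minus strand of mm10, read from the GENCODE M21 transcripts.
Exon to intron in the unspliced transcript, chr7:28379159-28379188, capitals marking the first 2 intron bases: tctgccatctacgagGTgagtacctgttag
Intron to exon in the unspliced transcript, chr7:28378479-28378508, capitals marking the last 2 intron bases: ccctgttcctctcAGagcctccagtcgatg
Joined exons in the spliced transcript, chr7:28378479-28379188 with the intron removed, capitals marking the base on either side of the junction: tctgccatctacgaGAgcctccagtcgatg

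Such a share was uncommon among genes with an annotated transcript that holds a whole intron. At a mean of at least 10 TPM, 1671 protein-coding genes had a transcript that holds a whole intron of their reference coding transcript, and those transcripts took a median of 16.6% of the gene's TPM and 14.1% of its reads. A share of reads as high as that of Zfp36, a mean of 76.6%, was reached by 31 of them, Zfp36 included, or 1.86%; by TPM it was 14. Where the transcript holding the intron was of class protein coding, 246 genes had a median of 11.2% of TPM, and 4 reached the share of Zfp36 by reads. These genes were not matched to Zfp36 for number of introns or transcript length, and a short transcript can take few reads. In Zfp36 the unspliced transcript has 2465 bases and the spliced one 2790. The split is an estimate, and reads in exon sequence that both transcripts share do not tell them apart. It also rests on the annotated starts: the first exon of the spliced transcript begins 998 bases upstream of the unspliced one, whereas the RefSeq start lies 27 bases inside the unspliced transcript and 1025 bases downstream of the start of the spliced one. How a spliced RNA from the RefSeq start was divided between them was not tested.

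The sequence before the RefSeq start of Zfp36 is shown where motifs fell, because that start lies beside the one of the unspliced transcript. Sequences are on the minus strand and come from the RefSeq promoter table on GRCm38.p6, which lists 8 of the 9 genes in windows from 250 bases before to 50 after a start. In GENCODE this stretch lies within the first exon of the spliced transcript.
Zfp36 from -115 to -86, chr7:28379314-28379343, capitals marking a match to the EGR site: gagctacgccGCGGGGGCGcgtcccggaag
Zfp36 from -70 to -41, chr7:28379269-28379298, capitals marking a GC box joined to a CArG box: ccccaggCCGCCCCATAAAAGGagaaagct
On both strands of the full windows of 300 bases, 8 motifs were searched: the TATA box as TATAAA, the AP-1 site as TGANTCA, the cAMP response element as TGACGTCA, the EGR site as GCGNGGGCG, the GC box as GGGCGG, the CCAAT box by its name, the CArG box and the kappa-B motif. The Zfp36 window held a CArG box, the motif of serum response factor, from -58 to -49, which 1.63% of 32851 promoters hold. It held the EGR site from -105 to -97, found in 5.55% of promoters, and a GC box on the other strand from -63 to -58, found in 35.7% and overlapping the CArG box by its last base. None of the other 7 listed genes had a CArG box or an EGR site in its window. Zfp36l1 had a TATA box from -29 to -24 (13.6% of promoters), overlapping a reverse CCAAT box by a base, and an AP-1 site from -129 to -123 (7.81%). Rc3h1 also had an AP-1 site, from -133 to -127. The first of the 2 windows of Zc3h12c had a kappa-B motif from -236 to -227 (8.46%). GC boxes numbered 5 in Zc3h12a and 6 in Rc3h1. The remaining matches, in Zc3h12c, Elavl1 and Khsrp, were GC or CCAAT boxes, and Rc3h2 had none of the motifs. These are matches of letters, and binding was not measured.

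Zfp36l1 (ENSMUSG00000021127.7, chr12:80107754-80113013, minus strand), a paralog with the same kind of zinc fingers, had 59.1 TPM in replicate 1 and 85.1 TPM in replicate 2. Its reads differed more, at 1705 and 4943, and the 2 measures part at a short transcript. ENSMUST00000219642.1, of 545 bases, took 44.0% of the gene's TPM in replicate 1 and 0% in replicate 2, but 8.24% of its reads in replicate 1, which is 140 reads. The second tables gave the same contrast, with 51.1% of TPM in replicate 1 and 0% in replicate 2. The main transcript, ENSMUST00000021552.2, had 33.1 TPM in replicate 1 and 85.1 TPM in replicate 2. The short transcript leaves out 1424 bases of the second exon of the main one (chr12:80109093-80110516), including 925 of its 1014 coding bases.

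The junction is printed because it is what sets the short Zfp36l1 transcript apart. Both lines are on the minus strand, and capitals mark the base on either side of the join or of the same place in the unspliced exon.
Short transcript across the join, chr12:80109078-80110531 with the stretch removed: ctacagcactcccaGCtggccacacaagtg
Main transcript at the same place, chr12:80110502-80110531: ctacagcactcccaGCgctgggggctgcct
The stretch left out begins with CG and ends with AG, where the intron of Zfp36 begins with GT and ends with AG, and 6 bases are repeated at its ends, so the join can be placed at several neighbouring positions. Neither Zfp36l1 nor Zfp36l2 has an annotated transcript that holds its intron, of 2270 and 487 bases. RNA that retains those introns therefore has no transcript of its own in the tables, and the high share in Zfp36 has no counterpart that could be measured in its paralogs.

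Zfp36l2 (ENSMUSG00000045817.8, chr17:84183931-84187947, minus strand), the third paralog, had 17.5 TPM in replicate 1 and 18.4 TPM in replicate 2, from 991 and 1275 reads, all on its only transcript, ENSMUST00000060366.6. Its mean was 18.0 ± 0.594 TPM, and in the second tables it had 7.15 and 8.72 TPM. Zfp36l1 exceeded it by 3.37 times in replicate 1 and 4.63 times in replicate 2.

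**Figure D2:**
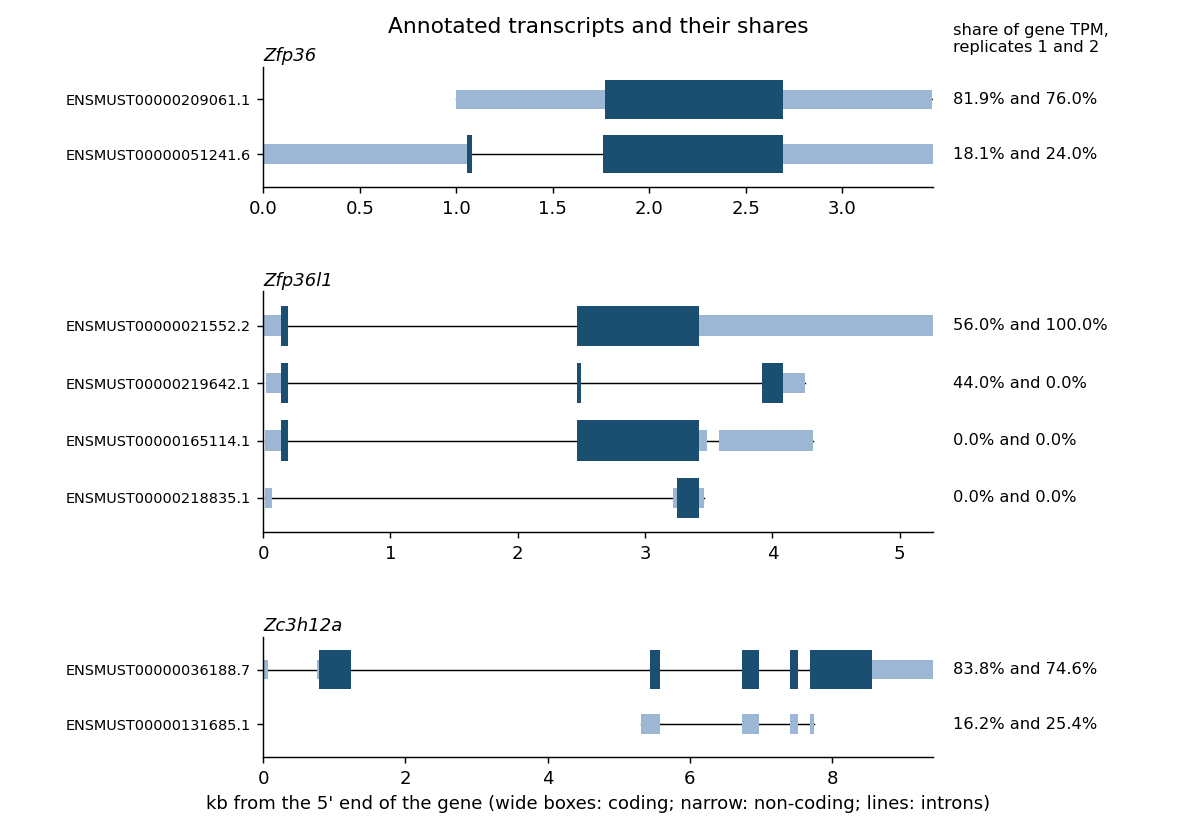
Annotated transcripts of Zfp36, Zfp36l1 and Zc3h12a in kb from the 5′ end of each gene, with coding parts as wide boxes, non-coding exon parts as narrow boxes and introns as lines; the numbers are each transcript's share of the gene's TPM in replicates 1 and 2. The unspliced Zfp36 transcript at the top holds 81.9% and 76.0%, and the short Zfp36l1 transcript holds 44.0% in replicate 1 and 0% in replicate 2.

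By mean TPM the regnase genes came next after Zfp36l1, although Zc3h12c stood below Rc3h2, Zfp36l2, Rc3h1 and Khsrp in replicate 2. Zc3h12a (ENSMUSG00000042677.7, chr4:125118423-125127840, minus strand) encodes Regnase-1, an endonuclease that cuts stem-loops in cytokine mRNAs, and had 44.5 TPM in replicate 1 and 36.4 TPM in replicate 2, from 1666 and 1531 reads. Its coding transcript ENSMUST00000036188.7 held 83.8% and 74.6% of the TPM. The remainder was ENSMUST00000131685.1, of class retained intron and 660 bases, with 16.2% and 25.4% of TPM but 3.19% and 5.74% of reads. It includes 127 intronic bases and no whole intron, and the second tables gave it 46.3% and 46.4% of TPM.

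Zc3h12c (ENSMUSG00000035164.8, chr9:52111344-52168572, minus strand) encodes Regnase-3. It had 43.8 TPM in replicate 1 and 10.5 TPM in replicate 2, from 4895 and 1436 reads, a mean of 27.1 ± 23.5 TPM. Zc3h12a and Zc3h12c stood level in replicate 1, with a ratio of 1.02, and at 3.47 in replicate 2. All reads of Zc3h12c lay on ENSMUST00000213645.1 in the main tables; the second tables put 30.9% and 50.6% of its reads on ENSMUST00000165519.1, whose exons share 6052 bases with it. Which of the transcripts was present could thus not be settled from these tables, while the difference between libraries stood in both.

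The roquin genes were close to each other and similar in both libraries. Rc3h1 (ENSMUSG00000040423.10, chr1:160906418-160974978, plus strand), which encodes Roquin-1, had 16.7 TPM in replicate 1 and 12.8 TPM in replicate 2, from 2269 and 2123 reads. Rc3h2 (ENSMUSG00000075376.10, chr2:37370069-37422903, minus strand), which encodes Roquin-2, had 22.9 TPM and 19.1 TPM, from 2465 and 2455 reads. Rc3h2 exceeded Rc3h1 by 1.37 times in replicate 1 and by more in replicate 2, and the ranges of the pair did not overlap.

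Both roquin genes had reads on transcripts of class retained intron. In Rc3h1 the coding ENSMUST00000161609.7 held 64.0% of TPM in replicate 1 and 69.4% in replicate 2, and the coding ENSMUST00000035911.4 held 31.1% and 11.9%. ENSMUST00000161708.1, the only one of class retained intron in Rc3h1, held 4.92% of its TPM in replicate 1 and 18.6% in replicate 2, but 0.269% and 1.07% of its reads. In Rc3h2, 5 such transcripts together held 34.1% and 38.8% of TPM and 11.6% and 14.2% of reads. The one with most TPM, ENSMUST00000205124.1, is 1 exon of 2236 bases, 1930 of them intronic, with 67.2 and 128 reads. The coding transcript ENSMUST00000100143.9 took 43.5% and 38.7% of the TPM, and ENSMUST00000112934.7, also coding, took 18.9% and 22.1%.

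By mean TPM, Elavl1 and Khsrp were the lowest of the 9, although in replicate 2 Zc3h12c at 10.5 TPM stood below Khsrp. Elavl1 (ENSMUSG00000040028.10, chr8:4285382-4325413, minus strand), which encodes HuR, had 12.4 TPM in replicate 1 and 9.33 TPM in replicate 2, from 642 and 721 reads. Khsrp (ENSMUSG00000007670.10, chr17:57021051-57031522, minus strand), which encodes KSRP, had 15.3 TPM and 12.5 TPM, from 706 and 907 reads. RNA of Khsrp exceeded that of Elavl1 by 1.24 times in replicate 1 and 1.34 times in replicate 2. In the second tables these ratios were 1.05 and 1.32. The proteins were not measured.

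In Elavl1 the share on the class retained intron differed between the libraries. The class took 53.8% of its TPM in replicate 1 and 38.9% in replicate 2, and 30.8% and 14.99% of its reads; in the second tables it took 55.7% and 30.4% of TPM. The coding ENSMUST00000098950.5 held 33.2% and 54.3% of TPM. Most reads of the class were on ENSMUST00000207615.1, 1 exon of 4808 bases with 4620 of them intronic, which had 168 and 84.7 reads. By TPM the short ENSMUST00000208987.1, of 613 bases, led the class with 36.5% and 29.4%, from 29.6 and 23.4 reads. The second tables gave it 37.0% and 13.6% of TPM. In Khsrp the coding ENSMUST00000007814.9 held 68.3% and 90.8% of TPM, and the class took 31.7% and 9.19% of TPM and 5.22% and 1.46% of reads. Its ENSMUST00000233246.1 had 21.8 and 13.2 reads and ENSMUST00000232765.1 had 15.1 and 0, so the difference in share rests on few reads.

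**Figure D3:**
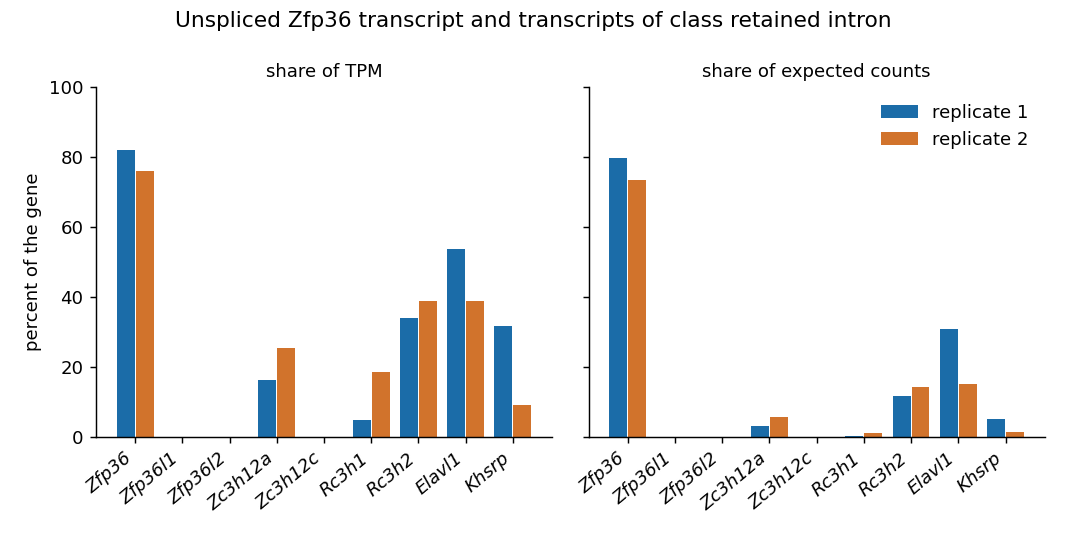
Percent of each gene's TPM (left) and expected counts (right) on the unspliced transcript, for Zfp36, and on transcripts of class retained intron, for the other 8 genes, with replicate 1 left of replicate 2 in each pair of bars. Zfp36 keeps a high share by both measures, whereas the shares of the other genes are lower by reads than by TPM; Zfp36l1, Zfp36l2 and Zc3h12c have no transcript of that class.

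Replicate 1 was set against replicate 2 by expected counts scaled with TMM factors, which set the bulk of genes equal, and a gene was called where the ratio passed 2-fold either way and the scaled 95% Poisson intervals did not overlap. With 1 library each, this compares the 2 libraries and has no p-value. Of the 9 genes 2 were called, Zc3h12c higher and Zfp36l1 lower in replicate 1, beside 9.02% of the 10448 genes with a mean of at least 50 counts. By direction, 3.8% of these genes were called higher and 5.22% lower in replicate 1. Zc3h12c had a log2 ratio of 1.70, which is 3.26-fold higher in replicate 1, and 1.17% of genes had a ratio farther from 0. Zfp36l1 had -1.60, which is 3.03-fold lower in replicate 1, and 1.52% of genes lay farther out.

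The remaining 7 genes stayed within 2-fold. Zfp36 had a log2 ratio of -0.65, Zfp36l2 of -0.43, Khsrp of -0.43 and Elavl1 of -0.23. Zc3h12a, Rc3h1 and Rc3h2 had 0.06, 0.03 and -0.06. All 3 TTP family genes were thus below 0 and both regnase genes above 0, also under each other scaling tried. Of all 10448 genes, 5474 were above 0 and 4974 below. Zc3h12a was close to 0, with 92.2% of genes farther out. By TPM in place of scaled reads, a scale that lifts the median ratio of all genes by 0.40, Zfp36l1 had -0.53 and was no longer called, and Rc3h2, Elavl1 and Khsrp had positive ratios; Rc3h1 turned negative with DESeq2 size factors and in the second tables.

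**Figure D4:**
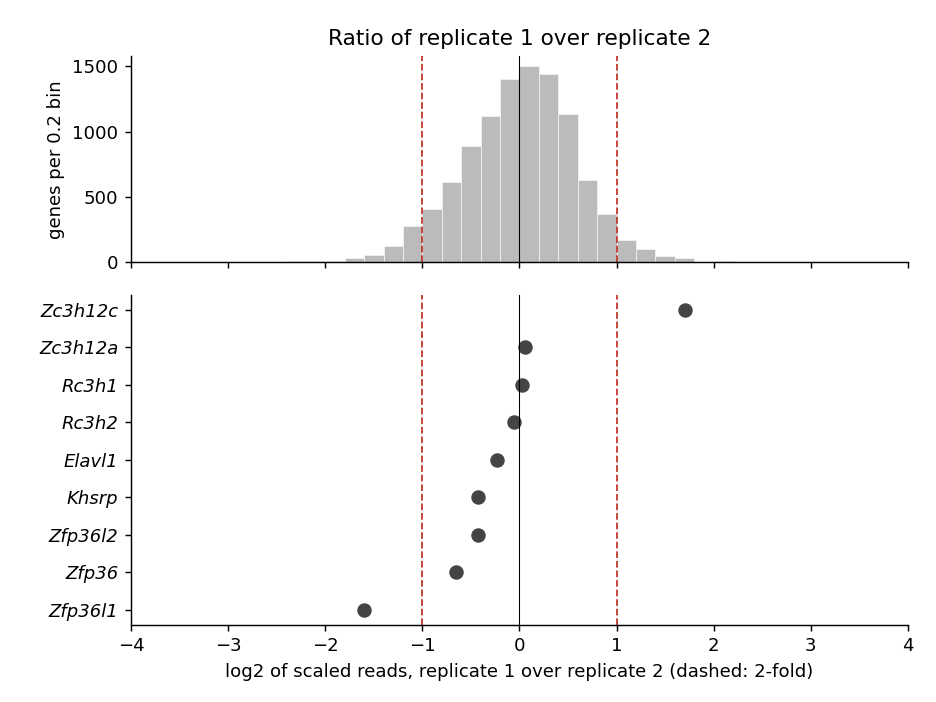
Log2 ratio of scaled reads, replicate 1 over replicate 2, as a histogram of the 10448 genes with a mean of at least 50 counts (top) and for each decay regulator (bottom); dashed lines mark 2-fold. Zc3h12c at 1.70 and Zfp36l1 at -1.60 lie outside the lines and the other 7 genes between them.

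Several measures moved with these ratios. Replicate 1 was made from 1 µg of RNA and replicate 2 from 500 ng, and this amount cannot be told apart from the replicates. Across the 9 genes the ratio had a Spearman correlation of 0.75 with the genomic span of the gene, and across 9006 protein-coding genes it was 0.322; all points come from the same pair of libraries. Among the macrophage markers, Lyz2 was called lower in replicate 1 by 2.04-fold with 27257 reads against 53175, and 2 of the 8 markers had ratios above 0. No marker of another cell type had more than 26 reads in a library. Fewer cells of a type and less RNA per cell cannot be told apart in such bulk samples, and the part of any of these in the ratios was not tested.

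Reads on opposite strands are a further limit, since the labels and headers do not say if reads were counted by strand. The lincRNA gene Gm26669 on the strand opposite Zfp36l1 shares 1672 of its 1808 exon bases with it and had 447 reads in replicate 1 and 255 in replicate 2. With these added, the reads of Zfp36l1 came to 2152 and 5198, 2.53-fold lower in replicate 1 after scaling. The second tables gave Gm26669 904 and 1168 reads, so the direction between the libraries was turned. Ccl25, opposite Elavl1 with 204 shared exon bases, had 305 and 446 reads. Gm44710 opposite Zfp36 had 4 reads in each library.

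In 7 of the 9 genes the 3′ UTR holds the core of the element that tristetraprolin binds, and the 3 TTP family genes and Elavl1 had many for their length. The core TATTTAT, in DNA letters, was counted in the 3′ UTR of 1 coding transcript per gene, the one with the highest mean TPM, on the sense strand with overlaps allowed. Of 20952 UTRs, 26.1% had a core and 7.14% had the longer TTATTTATT, which contains it. Among UTRs within 20% of a gene's own length, the share with a core ran from 19.7% for Zfp36 to 79.6% for Rc3h1. The 7 of 9 is therefore not to be read against the 26.1%. Zfp36 had 3 cores in 767 bases, a number reached by 1.17% of the 2395 UTRs within 20% of that length. Zfp36l1 and Zfp36l2 had 3 cores each in 1835 and 1822 bases, reached by 4.23% and 4.22% of UTRs of like length. Elavl1 had 8 in 4218 bases, reached by 0.333%. Zc3h12c, Rc3h1 and Rc3h2 had 2, 2 and 3 in long UTRs, numbers that 29.9%, 47.3% and 19.2% of UTRs of like length reach, and Zc3h12a and Khsrp had none.

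The window of 25 bases with the most core bases is given for those 4 genes and for Tnf, the classical target of tristetraprolin. Capitals mark complete cores, and all are on the minus strand of mm10.
Zfp36, chr7:28376960-28376984: tTATTTATgacgacttTATTTATtg
Zfp36l1, chr12:80108424-80108448: atcaaaacgTATTTATtgccaaact
Zfp36l2, chr17:84184916-84184940: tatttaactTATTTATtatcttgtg
Elavl1, chr8:4285781-4285805: TATTTATTTATTTATTTATttttat
Tnf, chr17:35199682-35199706: TATTTATTATTTATTTATTATTTAT
In Zfp36 the cores began 575, 590 and 615 bases after the stop codon, and the window shows the first pair. Those of Zfp36l1 and Zfp36l2 stood singly. In Elavl1 the first 4 cores overlapped in the run shown, and 1 single core and a further run of 3 followed. Tnf had 8 cores in 764 bases, and the 4 in its window overlap or stand end to end. Whether these sites were bound was not measured.

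Other genes of the decay pathway are given by list, to be read beside the 42.4% of protein-coding genes detected. The median of each list covers all its genes, detected or not, whereas the median of 8.61 TPM for protein-coding genes covers only those detected. Of 16 further family members and AU-rich element binders, 11 were detected, and the median over all 16 was 16.7 TPM. Celf1, which binds GU-rich elements, led at 43.8 ± 13.6 TPM, ahead of Tial1, which encodes the translational silencer TIAR, at 40.5 ± 20.2 and Hnrnpd, which encodes AUF1, at 34.8 ± 11.8. The neuronal HuR paralog Elavl2 had 0 reads in both libraries. None of the 11 with enough reads was called between the libraries.

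Genes of the CCR4-NOT and PAN2-PAN3 deadenylase complexes and of the Tob adaptors were all detected, 15 of 15, at a median of 10.8 TPM. Scaffold and adaptor genes are among them, so the median is not that of the nucleases alone. Pan3, the partner of the PAN2 nuclease, stood at 78.7 ± 34.7 TPM, the CCR4-NOT scaffold gene Cnot1 at 41.7 ± 0.990 and the nuclease gene Cnot6l at 24.0 ± 1.48. Tob1, an adaptor, was lowest at 2.26 ± 0.382. For decapping and 5′ to 3′ decay, 10 of 11 genes passed 1 TPM in both libraries and the list's median was 10.7 TPM, led by Gigyf2 at 31.7 ± 6.49, Ddx6 at 30.2 ± 2.79 and the exonuclease gene Xrn1 at 22.5 ± 11.9 TPM; Lsm1, a subunit of the ring that binds deadenylated ends, stood at 0.680 ± 0.0283. No gene of either list was called between the libraries.

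The exosome genes were lower: 13 of 14 were detected, and the median over all 14 was 3.47 TPM. The helicase gene Skiv2l led at 21.1 ± 13.7 TPM, followed by Exosc10, the nuclear exosome nuclease, at 12.2 ± 3.20 and Ttc37 at 6.88 ± 4.60. Exosc4 was lowest at 0.955 ± 0.686. Exosc1 was called lower in replicate 1 by 2.19-fold, with 33 reads against 69.

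The list for control of tristetraprolin by p38 and MK2 was detected in full, 12 of 12 genes, and its median was 27.0 TPM. Beside kinase genes and Dusp1 it holds genes of the phosphatase PP2A and of the Ywha family. Its count and median are therefore not those of the kinases alone. Dusp1, whose phosphatase switches p38 off, stood at 386 ± 61.1 TPM, near Zfp36, and had 11251 reads in replicate 1 and 10667 in replicate 2, a log2 ratio of 0.01. Mapkapk2, which encodes the kinase MK2, had 281 TPM in replicate 1 and 74.7 TPM in replicate 2, from 11942 and 3697 reads. It was called 3.09-fold higher in replicate 1, in the direction of Zc3h12c and opposite to Zfp36l1. Mapkapk3 stood at 47.7 ± 13.7 TPM, and Ppp2cb, a catalytic subunit of PP2A, was lowest at 4.42 ± 0.247.

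Of 19 mRNAs reported as targets of these proteins, 15 were detected, and the median over all 19 was 145 TPM. The chemokine gene Cxcl2 stood at 867 ± 189 TPM, Tnf at 851 ± 148 TPM and Nfkbiz, an IκB family gene and a regnase target, at 547 ± 174 TPM. Icos, a T cell costimulator gene, was lowest with 9 and 11 reads. Il12b was the only one called between the libraries, 3.33-fold higher in replicate 1 by scaled reads, at 7.21 TPM against 1.66 TPM. Zfp36 at 466 TPM thus stood below these 3 and above the targets' median, while the other 8 regulators stood below the targets' median. Levels in the nucleoplasm do not measure decay, and no time course of the RNA was analysed here.

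**Figure D5:**
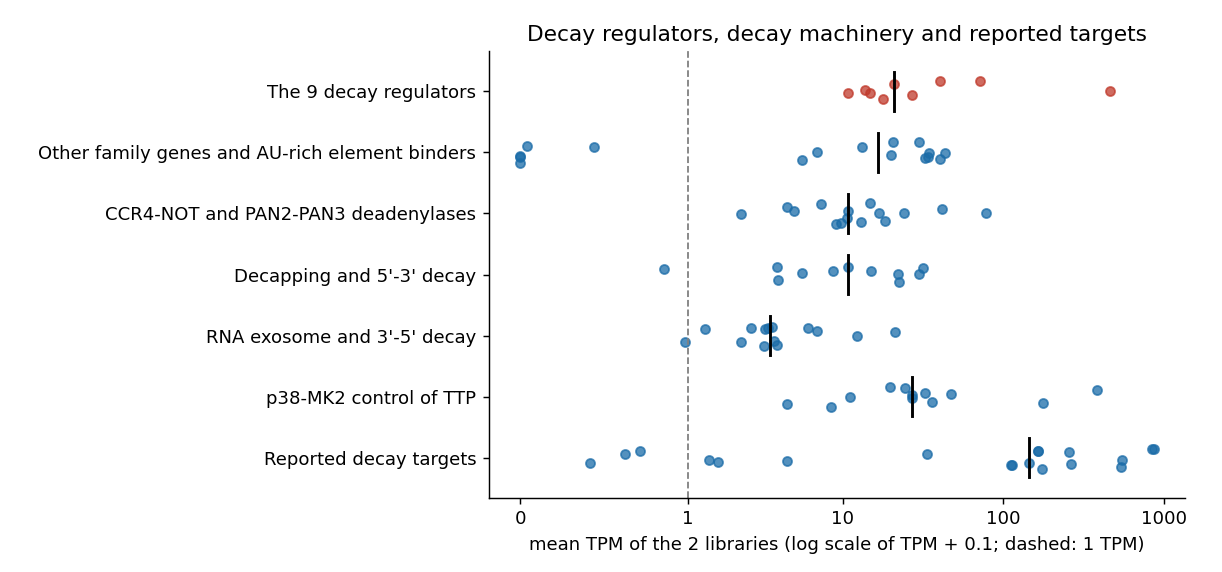
Mean TPM of the 2 libraries for each gene (points) and the median (bars) of the 9 decay regulators, 5 lists of pathway genes and the reported targets, on a log axis of TPM + 0.1; the dashed line is 1 TPM. Reported targets have the highest median, 145 TPM, and the exosome genes the lowest, 3.47 TPM.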

How the data were processed

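For each library a table of genes and a pair of transcript tables were deposited; build mm10 and annotation GENCODE M21 are named in the deposited text files. The deposited gene tables gave expected counts, TPM and FPKM per gene, and the deposited first transcript tables gave expected counts, TPM and the percent of a gene's TPM for each transcript, per the file headers. Estimated counts and TPM came from the other deposited transcript tables. Neither the tools of quantification nor any use of strand is stated: not given in the sources used here. Replicates were not pooled.

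For ratios, expected counts were rounded and TMM factors taken from edgeR 4.0.16 under R 4.3.3, with DESeq2 1.42.0 size factors as an alternative. All 55536 gene IDs matched the annotation, and 26345 other rows, with 1.19% of counts in replicate 1 and 0.213% in replicate 2, were left out. Poisson intervals, and the 3 counts that a count of 0 allows (1.89e-05% of replicate 1 and 2.02e-05% of replicate 2), cover counting error only. With 1 group there was no test between conditions and no p-value.

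The 9 genes and all lists were chosen with earlier results of these data known. Named besides them were the 3 highest, the lowest and any called gene of each list, and, for TTP family genes, neighbours by mean TPM. Transcripts named were the 2 with the highest mean share and any retained intron transcript at 10% or more; a second one of Khsrp was named after its values were seen, as were Ccl25, Gm26669 and Gm44710 for overlapping exons. Reference coding transcripts for introns, UTRs and junctions came from GENCODE M21. The ratio script was tested on simulated data. Alternatives were the second tables, rescaled TPM, FPKM, other scalings and filters, and each library alone; adding reads of opposite-strand genes was chosen after seeing the data.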

Additional observations from a re-analysis of the deposited data

How the results depend on the processing

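No paired analysis was possible because the series has 1 group. Leaving out a library gives no ratio between libraries. With replicate 1 or replicate 2 left out, the number of genes at their place in the order of levels ranged from 4 to 9, the median TPM of the 9 genes from 18.4 to 22.9 and the TPM share of the unspliced Zfp36 transcript from 76.0% to 81.9%; the 4 came without replicate 1. All 9 genes were detected under every alternative, also at 5 TPM, where exosome genes detected fell to 3. The median was 12.3 TPM in the second tables and 88.8 TPM when rescaled over nuclear protein-coding genes, which changes the total that TPM is shared over. Zfp36 stayed first throughout. By the ratio of TPM 1 of the 9 genes was called, Zc3h12c, and 1768 of all genes, 1580 higher and 188 lower in replicate 1, beside 397 and 545 by TMM-scaled reads, 942 in all. No filter on the mean count gave 1674 calls of 22282 genes, and the reads of the second tables gave 1523 calls of 16369; both tested more genes. DESeq2 factors and plain library size gave 951 calls each. Of 60 ratios of single genes under alternatives, 59 kept their call, and the exception was Zfp36l1. Dropping the count filter or the interval rule left the ratios of the 9 genes as they were, so those calls could not change. The genes opposite Zfp36, Zfp36l2, Zc3h12c and Khsrp had at most 4 reads a library, so adding them tested little. Of 18 single levels in the second tables or rescaled, 17 moved by more than the SD of the 2 libraries. Rescaling divides the levels by the share of TPM on nuclear protein-coding genes, 27.6% in replicate 1 and 20.2% in replicate 2. Every rescaled level therefore rises by construction. For the second tables the cause was not tested. Depth limits the shares of Khsrp and Rc3h1 on retained introns and that of ENSMUST00000208987.1 in Elavl1, which rest on under 40 reads a library.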

Other observations

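The reported targets differed widely in the tristetraprolin core. Csf2, which encodes the growth factor GM-CSF, had the densest 3′ UTR of the targets read, with 9 cores in 317 bases, and Tnf, Cxcl1 and Cxcl2 had 8, 6 and 7 in 764, 592 and 734 bases. Nfkbiz, Nfkbid, Icos and Tnfrsf4 had none; in mouse, all 4 are described as targets of regnase or roquin proteins, which bind stem-loops. Ccl2 also had none. These genes were chosen after their values were seen. Same-strand genes of class TEC inside Rc3h1 held reads of their own, with 162 in replicate 1 and 67 in replicate 2 for Gm37653.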
